A study of Mus musculus with 32 samples.

Results

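The Cyp2a cluster of mouse chromosome 7 encodes cytochrome P450 enzymes and lies beside the Cyp2b genes that were deleted in Cyp2b-null mice. Its 8 genes described here, Cyp2a4, Cyp2a5, Cyp2a12, Cyp2a22, Cyp2g1, Cyp2f2, Cyp2s1 and the pseudogene Gm29920, were chosen by position and name, out of 41585 gene entries in the tables of counts. Liver RNA was sequenced from 4 WT (C57BL/6J) and 4 Cyp2b-null mice per sex and diet, 32 libraries in 8 groups. The Cyp2b-null mice lack Cyp2b9, Cyp2b10 and Cyp2b13 through CRISPR/Cas9 deletion on a C57BL/6J background. Mice were 10 weeks old at the start and were fed a normal diet (ND, chow) or, for 8 weeks, CDAHFD, a high fat diet that lacks choline and has defined amino acids. WT mice were purchased, and where the Cyp2b-null mice were bred is not given in the sources used here, so whether both genotypes came from 1 colony is unknown. Among the members outside the span of the deleted genes, the largest genotype difference was in Cyp2a4 of males. Its level was 26.7-fold higher in ND-fed Cyp2b-null mice (3.32 against 87.4 CPM, a level scaled for library size). No other member outside that span differed by genotype beyond the test's threshold.

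Cytochromes P450 of the Cyp2a family oxidize steroids and small xenobiotics. CYP2A5 is the coumarin 7-hydroxylase of mouse liver and is found mainly in pericentral hepatocytes. CYP2A4 hydroxylates testosterone at the 15-alpha position and is known as a female-predominant liver enzyme, although its protein differs from CYP2A5 at few residues. CYP2A12 acts on steroids and bile acids. CYP2F2 bioactivates naphthalene in airway club cells and is also a periportal hepatocyte enzyme. CYP2G1 is best known from the olfactory mucosa, and CYP2S1 from epithelia outside the liver.

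In the GRCm38.p6 annotation the deleted genes run from the start of Cyp2b10 to the end of Cyp2b9, chr7:25897658-26210661, a span of 313 kb. Cyp2s1 (chr7:25802469-25816525, minus strand) lies 81.1 kb before this span. Gm29920 (chr7:26099561-26111069, minus strand) lies inside it, between Cyp2b13 and Cyp2b9, and is therefore not a flanking gene. Cyp2a4 (chr7:26307192-26315088, plus strand) is the nearest gene of its family after the span, 96.5 kb from the end of Cyp2b9. Cyp2g1 (chr7:26808927-26821197, plus strand) and Cyp2a5 (chr7:26835339-26843264, plus strand) follow at 598 and 625 kb. Cyp2a22 (chr7:26931631-26939413, minus strand), Cyp2a12 (chr7:27029090-27036818, plus strand) and Cyp2f2 (chr7:27119955-27133660, plus strand) follow at 721, 818 and 909 kb.

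Cyp2a4 and Cyp2a5 are near copies, and which copy a read is counted on rests on few bases. Their coding sequences of 1485 bases differ at 23 positions (98.5% identical). The stretch of 60 coding bases with the most differences, positions 596 to 655 from the start codon's first base, is shown because it is where reads of both genes are easiest to tell apart, with the 4 differing bases in capitals.
Cyp2a4: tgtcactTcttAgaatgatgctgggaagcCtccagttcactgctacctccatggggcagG
Cyp2a5: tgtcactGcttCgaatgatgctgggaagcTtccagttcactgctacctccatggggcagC
Of the 1589 windows of 150 bases, the length of 1 read, in the Cyp2a4 transcript of GENCODE vM21, 67 (4.22%) occur without a difference in Cyp2a5. Cyp2a12 and Cyp2a22 form a second pair, with coding sequences 97.0% identical and 57 of 1532 windows (3.72%) of the Cyp2a12 transcript shared. Between all other pairs of the 7 protein-coding members, 0 windows were shared.

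The RefSeq promoter windows, of which the 250 bases before each start are used, are also paired. They are shown because the near copies Cyp2a4 and Cyp2a5, and Cyp2a22 and Cyp2a12, had unlike levels in males. RefSeq promoter sequences (GRCm38.p6) matched 6 of the 8 members, with Cyp2g1 and Gm29920 unmatched. Capitals mark bases that differ from the other gene of the pair or that have no partner in the alignment. For Cyp2a4 (chr7:26306942-26307191) and Cyp2a5 (chr7:26835089-26835338), both on the plus strand, these are 4 substitutions and 2 unpaired bases.
Cyp2a4: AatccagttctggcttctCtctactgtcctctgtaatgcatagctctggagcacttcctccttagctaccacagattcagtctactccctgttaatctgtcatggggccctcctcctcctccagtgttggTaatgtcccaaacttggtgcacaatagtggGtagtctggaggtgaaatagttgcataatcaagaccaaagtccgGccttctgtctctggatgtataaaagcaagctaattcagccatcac
Cyp2a5: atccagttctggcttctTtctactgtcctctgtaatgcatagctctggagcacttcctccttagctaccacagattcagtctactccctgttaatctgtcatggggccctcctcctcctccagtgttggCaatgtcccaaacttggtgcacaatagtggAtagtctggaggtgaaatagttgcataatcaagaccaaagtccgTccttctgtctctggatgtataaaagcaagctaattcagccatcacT
For Cyp2a12 (chr7:27028840-27029089, plus strand) and Cyp2a22 (chr7:26939387-26939636, minus strand) they are 23 substitutions and 22 unpaired bases, an identity of 82.8%. The Cyp2a22 window is taken from a start inside the annotated gene span, so its last bases overlap that span.
Cyp2a12: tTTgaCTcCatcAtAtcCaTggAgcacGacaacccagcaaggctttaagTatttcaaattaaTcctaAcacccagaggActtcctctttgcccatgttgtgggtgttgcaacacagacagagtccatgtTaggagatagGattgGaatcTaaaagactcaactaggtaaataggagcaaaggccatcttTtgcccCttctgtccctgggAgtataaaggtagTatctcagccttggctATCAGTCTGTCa
Cyp2a22: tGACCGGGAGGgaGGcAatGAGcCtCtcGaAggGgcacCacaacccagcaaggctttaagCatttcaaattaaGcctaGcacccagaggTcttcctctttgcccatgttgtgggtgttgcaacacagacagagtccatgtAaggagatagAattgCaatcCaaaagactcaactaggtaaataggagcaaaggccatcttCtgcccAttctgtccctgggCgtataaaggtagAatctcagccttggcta
TATAAA and 5 other motifs were searched on both strands in these windows and in the same windows of all 32851 RefSeq promoters. TATAAA occurred in all 4 printed promoters (12.4% of all promoters). TTGCNNAA, a C/EBP-type motif, occurred at -70 of Cyp2a4 and -71 of Cyp2a5 (9.56% of all). The STAT5-type motif TTCNNNGAA (7.02% of all), the nuclear receptor half-site AGGTCA (14.0% of all), the antioxidant response core TGACNNNGC (10.2% of all) and the HNF4-type motif CAAAGTCCA (0.384% of all) were in 0 of these 4. Only exact matches were counted, so sites that vary from these letters were missed. The Cyp2a4 and Cyp2a5 promoters both hold caaagtccg, which differs from the HNF4-type motif at its last base.

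Library totals ran from 2906411 to 10166959 counts, and 1 scale of CPM (TMM-normalized over all 32 libraries) is used for every level below. Differences are given as log2 ratios, each with its standard error (SE), from the quasi-likelihood test of edgeR, with 1 fit per sex. Adjusted p is by Benjamini-Hochberg across every gene that entered the fit, and "called" stands for an adjusted p under 0.05. Cyp2a4, Cyp2a5, Cyp2a12, Cyp2a22 and Cyp2f2 passed the low-count filter in both sexes and Cyp2g1 in females, whereas Cyp2s1 and Gm29920 missed it in both. In ND-fed females, Cyp2b9 had 1371 to 3530 counts per WT library and 4 to 8 per Cyp2b-null library. In ND-fed males Cyp2b10 separated the genotypes, as WT libraries held 33 to 97 counts of it and Cyp2b-null libraries 1 to 9. Markers of the tissue were present, as the 10 hepatocyte markers summed to between 74277 and 219893 CPM in a library.

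Cyp2a4 was close to absent in ND-fed WT males and was raised in Cyp2b-null males on either diet. On ND, the 4 WT male libraries had 3.49, 4.80, 1.92 and 3.06 CPM, which rest on 14 to 29 counts each. The 4 Cyp2b-null male libraries had 140, 28.9, 68.5 and 112 CPM, from 127 to 1263 counts. The groups did not overlap, as for 1.84% of all genes toward higher values in Cyp2b-null males. The difference was 4.74 on the log2 scale (SE 0.53, adjusted p = 0.00021). Of the 5 members tested it was the 1 called, in a comparison in which 0.0371% of all genes were called, and it was the 1 gene of 13460 called higher (0.00743%).

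On CDAHFD, Cyp2a4 was again higher in Cyp2b-null males. CDAHFD-fed WT males had 5.88, 14.99, 12.3 and 34.6 CPM, and Cyp2b-null males had 174, 85.4, 88.8 and 73.4 CPM. The groups did not overlap (1.12% of all genes toward higher values), and 1 Cyp2b-null library stood above the other 3. The difference was 2.64 (SE 0.44, 6.23-fold, adjusted p = 0.0314), with 0.0297% of all genes called and 0.0149% called higher. This call was lost when any of 6 libraries was left out, namely CDAHFD-fed WT replicates 1, 2 and 3, ND-fed Cyp2b-null replicate 3 and CDAHFD-fed Cyp2b-null replicates 1 and 3. In those fits the difference ran from 2.29 to 2.71 with adjusted p from 0.0533 to 0.238.

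**Figure D1:**
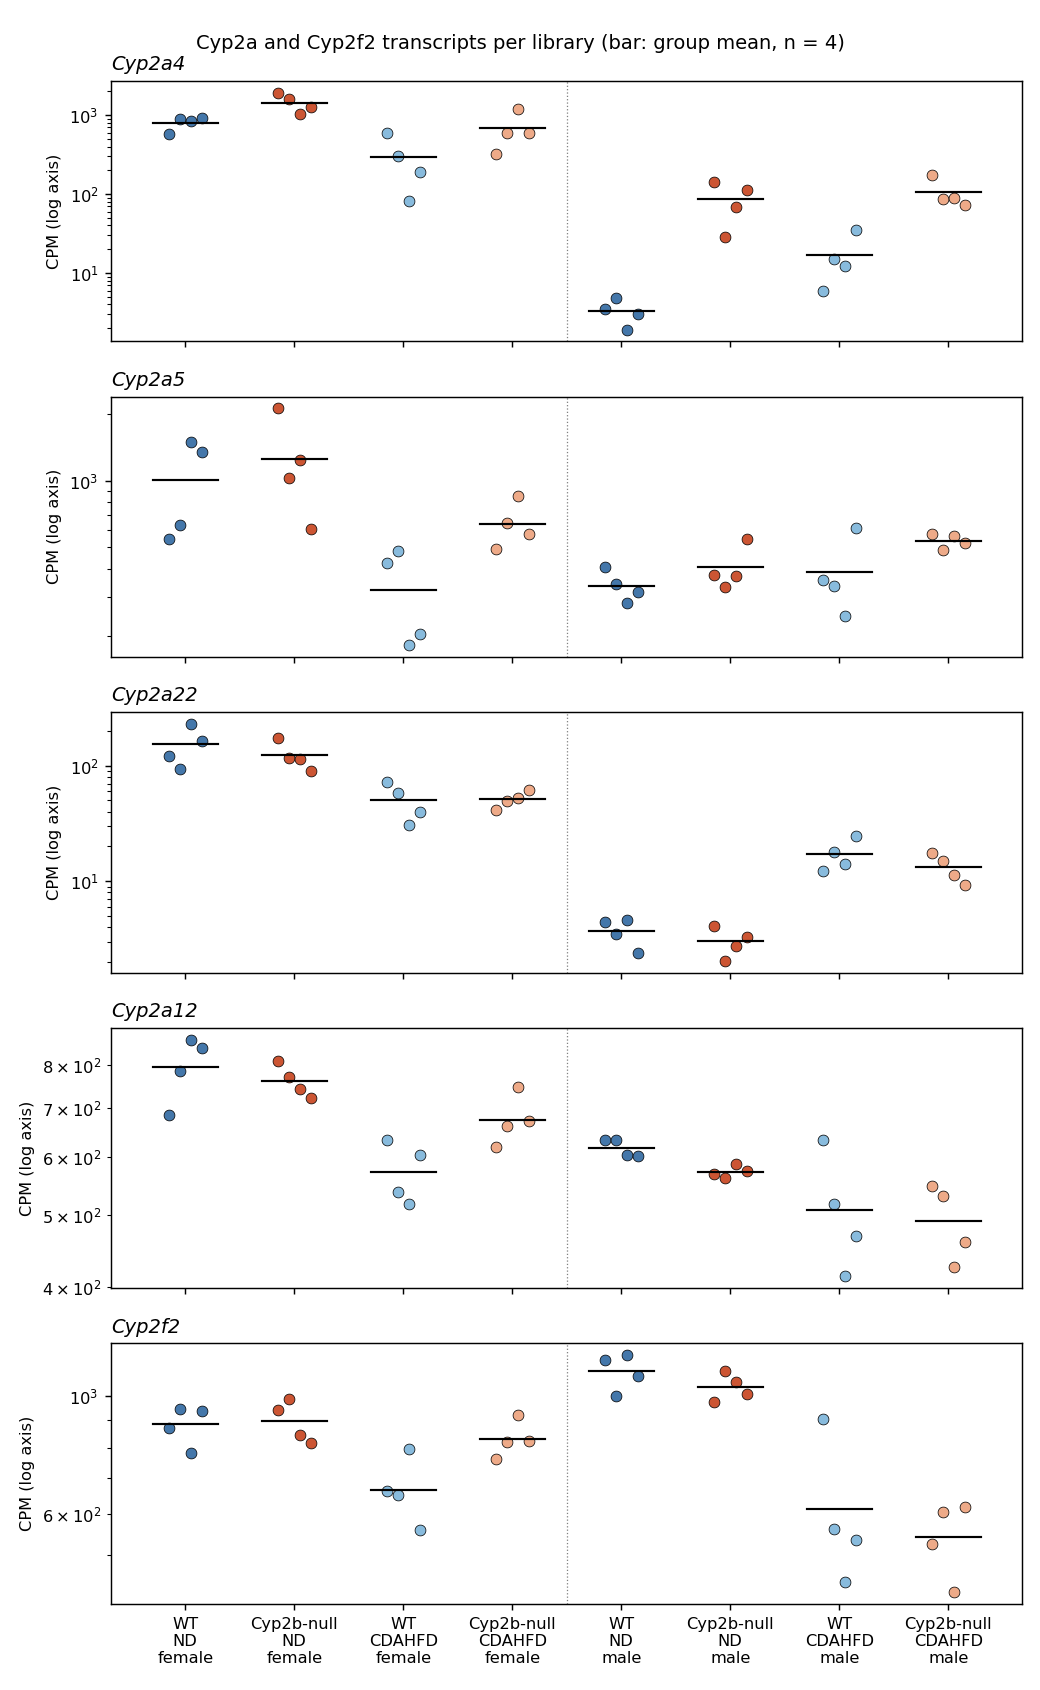
Levels of 5 genes of the cluster in every library, in CPM on a log axis, for the 8 groups of 4 mice, with each group's mean as a bar. Cyp2a4 spans from 1.92 CPM in an ND-fed WT male to 1910.3 CPM in an ND-fed Cyp2b-null female, and the male genotypes do not overlap on either diet.

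In females, Cyp2a4 was abundant in both genotypes, and its genotype difference did not pass the test. ND-fed WT females had 568, 893, 839 and 911 CPM and ND-fed Cyp2b-null females had 1910.3, 1576, 1025 and 1250.3 CPM. Again the groups did not overlap, as did 1.83% of all genes toward higher values in Cyp2b-null mice, but the difference of 0.84 (SE 0.41) had an adjusted p of 0.866. On CDAHFD the groups overlapped, with 80.7 to 594 CPM in WT and 319 to 1206 CPM in Cyp2b-null females, and the difference was 1.21 (SE 0.41, adjusted p = 0.826). With edgeR 0 of the 6 members tested in females were called by genotype on either diet (0.0756% of all genes called on ND and 0.0227% on CDAHFD), 0 and 3 had an unadjusted p under 0.05 (5.75% and 5.83% of all genes), and DESeq2 called 0.

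Of the 6 members tested for a sex difference on ND, Cyp2a4 had the largest estimate in WT mice. In ND-fed WT mice the level averaged 803 ± 159 CPM (SD, n = 4) in females and 3.32 ± 1.19 CPM in males, a difference of -7.92 (males minus females, SE 0.64, adjusted p = 2.77e-11) in 1 fit to all 32 libraries. In ND-fed Cyp2b-null mice the levels were 1440.2 ± 387 and 87.4 ± 48.9 CPM, a difference of -4.03 (SE 0.50, adjusted p = 3.95e-07). On CDAHFD the sex difference was -4.11 (SE 0.52) in WT and -2.69 (SE 0.47) in Cyp2b-null mice, and both were called (11% and 18.1% of all genes called, against 13.3% in Cyp2b-null mice on ND). With the counts of Cyp2a4 and Cyp2a5 added, the WT difference on CDAHFD was -0.60 (adjusted p = 0.225) and was not called. The genotype effect on ND differed between the sexes by 3.89 (SE 0.74) with an adjusted p of 0.0534, just outside the threshold, in a comparison with 0.00713% of genes called and 4.61% at an unadjusted p under 0.05. It was called in 5 of 7 alternative settings that kept Cyp2a4 apart from Cyp2a5 and in 9 of 32 fits without 1 library (adjusted p from 0.009 to 0.0499 in those 9). With both copies summed it was -0.03 (adjusted p = 1). On ND, Cyp2a4 held on average 0.968% (WT) and 16.9% (Cyp2b-null) of the summed counts in males. In females it held 46.5% and 55.2%. Such sums mix the copies in unlike proportions in each sex, so they do not test Cyp2a4 alone. On CDAHFD the sex difference of the Cyp2a4 genotype effect was 1.43 (SE 0.65, adjusted p = 1).

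The diet moved Cyp2a4 in opposite directions in WT females and WT males. CDAHFD-fed WT females had 594, 307, 80.7 and 191 CPM, lower than on ND by 1.43 (log2 change -1.43, SE 0.41, adjusted p = 0.0144). The groups overlapped through 1 CDAHFD-fed library at 594 CPM and 1 ND-fed library at 568 CPM, and without CDAHFD-fed WT replicate 4 the change was -1.27 with an adjusted p of 0.0539. In WT males Cyp2a4 rose 5.13-fold on CDAHFD (2.36, SE 0.56, adjusted p = 0.00245), and the groups did not overlap (15.8% of all genes toward higher values). With the counts of Cyp2a4 and Cyp2a5 added, that change was 0.26 (adjusted p = 0.395) and was not called. Cyp2a4 held on average 0.968% of those counts in ND-fed and 3.99% in CDAHFD-fed WT males. The sum therefore mostly follows Cyp2a5 and says little about Cyp2a4. The diet effects of the 2 sexes differed by 3.81 (SE 0.76, adjusted p = 0.00631). In Cyp2b-null males the values were 87.4 CPM on ND and 105 on CDAHFD (0.26, SE 0.39, adjusted p = 0.646), and the difference of the diet effects between the male genotypes was -2.10 (SE 0.69, adjusted p = 0.66).

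Cyp2a5, the near copy of Cyp2a4, was not called by genotype in either sex on either diet. ND-fed WT males had 407, 342, 283 and 316 CPM and ND-fed Cyp2b-null males had 378, 333, 371 and 546 CPM, which overlap (0.27, SE 0.21, adjusted p = 0.779). On CDAHFD the male groups had 246 to 615 and 487 to 573 CPM (0.47, SE 0.21, adjusted p = 1). CDAHFD-fed females had 182 to 482 CPM in WT and 492 to 848 in Cyp2b-null mice. Those groups did not overlap, as did 1.41% of all genes toward higher values, and the difference of 0.99 (SE 0.36) had an adjusted p of 0.826, although the fit without a low-count filter called it (adjusted p = 2.74e-06). In ND-fed females the mean was 1002 ± 481 CPM in WT and 1244 ± 632 in Cyp2b-null mice (0.31, SE 0.36, adjusted p = 0.966), with 548 to 1491 and 608 to 2109 CPM.

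Diet changed Cyp2a5 in WT females. It fell 3.05-fold on CDAHFD (-1.61, SE 0.37, adjusted p = 0.00263) without overlap of the groups (12.2% of all genes toward lower values). In Cyp2b-null females the change was -0.93 (SE 0.36, adjusted p = 0.0549) and the groups overlapped. In males it was 0.21 (SE 0.21) in WT and 0.40 (SE 0.21) in Cyp2b-null mice, and neither was called. Scaled by library size only, both were called (0.61 and 0.77, adjusted p = 0.0289 and 0.00669). The diet effects of WT males and WT females differed by 1.84 (SE 0.46, adjusted p = 0.0389), a call that was lost in 9 of the 32 fits that left out 1 library (adjusted p up to 0.137), with the replicate number as a block (adjusted p = 0.0576) and with only the groups compared (adjusted p = 0.0899). The libraries left out were ND-fed WT female replicates 3 and 4, CDAHFD-fed WT female replicates 3 and 4, ND-fed WT male replicates 2, 3 and 4 and CDAHFD-fed WT male replicates 2 and 4. On ND, Cyp2a5 was 2.98-fold lower in WT males than in WT females (-1.57, SE 0.33, adjusted p = 0.000986).

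The share of Cyp2a4 among the counts of both copies does not depend on the scaling of libraries, and it was computed after the levels had been seen. In ND-fed WT males it was 0.851, 1.38, 0.674 and 0.961%, and the 95% Wilson intervals of these libraries lie between 0.402 and 1.98%. In ND-fed Cyp2b-null males it was 27.1, 8.00, 15.6 and 16.98%. On CDAHFD it was 1.61, 4.28, 4.74 and 5.33% in WT and 23.3, 14.9, 13.6 and 12.3% in Cyp2b-null males. In all 16 female libraries it was between 30.8 and 67.3%, so the highest male share was below the lowest female share. The male genotypes differed by 15.9 percentage points on ND and 12.04 on CDAHFD, each with p = 0.0286 in a two-sided exact permutation test of 4 against 4 libraries, the smallest p this design can give, and an adjusted p of 0.0762 over the 8 comparisons made. The Wilson intervals treat the reads of a library as independent molecules, which they are not, and leave out the spread between mice. In females the genotypes' shares were 46.5 ± 10.2% and 55.2 ± 10.5% (SD, n = 4) on ND, which overlap (exact permutation p = 0.286).

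**Figure D2:**
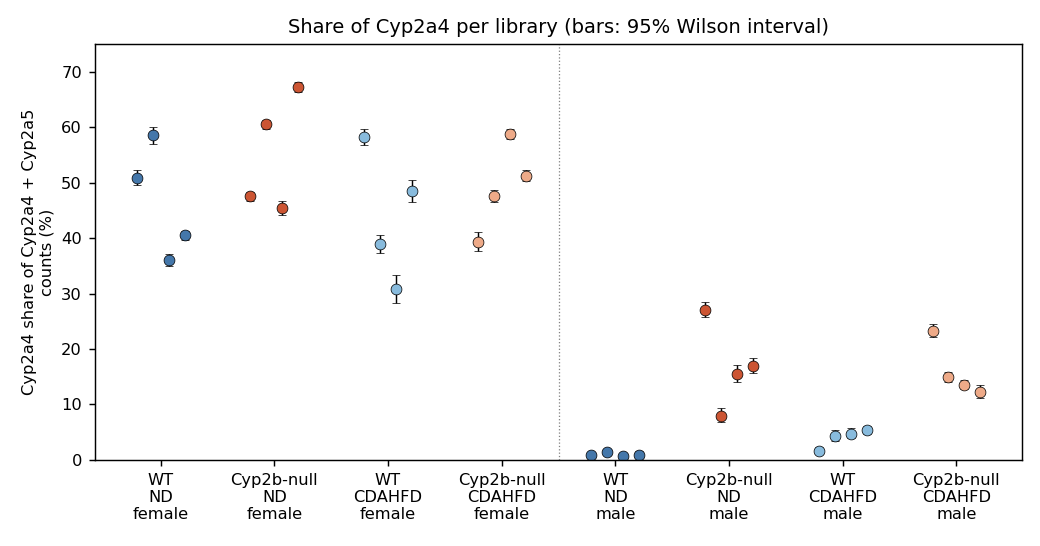
Percent of the Cyp2a4 and Cyp2a5 counts that fell on Cyp2a4, 1 point per library with its 95% Wilson interval. WT males lie between 0.674 and 5.33%, Cyp2b-null males between 8.00 and 27.1%, and females between 30.8 and 67.3%.

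Cyp2a5 held most of the male counts of the pair. With the counts of both added, the genotype difference in ND-fed males was 0.54 (adjusted p = 0.499) and in CDAHFD-fed males 0.66 (adjusted p = 1), and neither was called. The setting used for reads that map to more than 1 place is not given in the sources used here, and its part in the levels of either copy was not tested. The male means of Cyp2a5 in WT and Cyp2b-null mice were 337 ± 52.6 and 407 ± 94.8 CPM on ND and 389 ± 158 and 537 ± 39.6 CPM on CDAHFD (SD, n = 4).

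Around the deletion, Cyp2a4 of males was the one gene outside the deleted genes that the test called. In a window from 1 Mb before Cyp2s1 to 1 Mb after Cyp2f2, 148 genes are annotated and 113 are in the tables. Of the 55 tested in males besides Cyp2a4 and the deleted genes, edgeR called 0 by genotype on either diet, DESeq2 called 0, and 5 on ND and 2 on CDAHFD had an unadjusted p under 0.05 (8.26% and 3.62% of all genes). Their differences ran from -1.45 to 1.09 on ND (median -0.02) and from -1.27 to 0.69 on CDAHFD (median 0.08). Of the 57 in females, 0 were called by either tool, and 3 on ND and 8 on CDAHFD had an unadjusted p under 0.05, beside 5.75% and 5.83% of all genes. Among the 14 tested genes of the flanking segments that encode no P450, such as Tgfb1, the growth factor TGF-beta 1, and Exosc5, a subunit of the RNA exosome, 0 were called by genotype with edgeR in ND-fed males, 1 had an unadjusted p under 0.05, and DESeq2 called 0. There Tgfb1 had the smallest adjusted p of these (0.81, SE 0.24, adjusted p = 0.302).

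**Figure D3:**
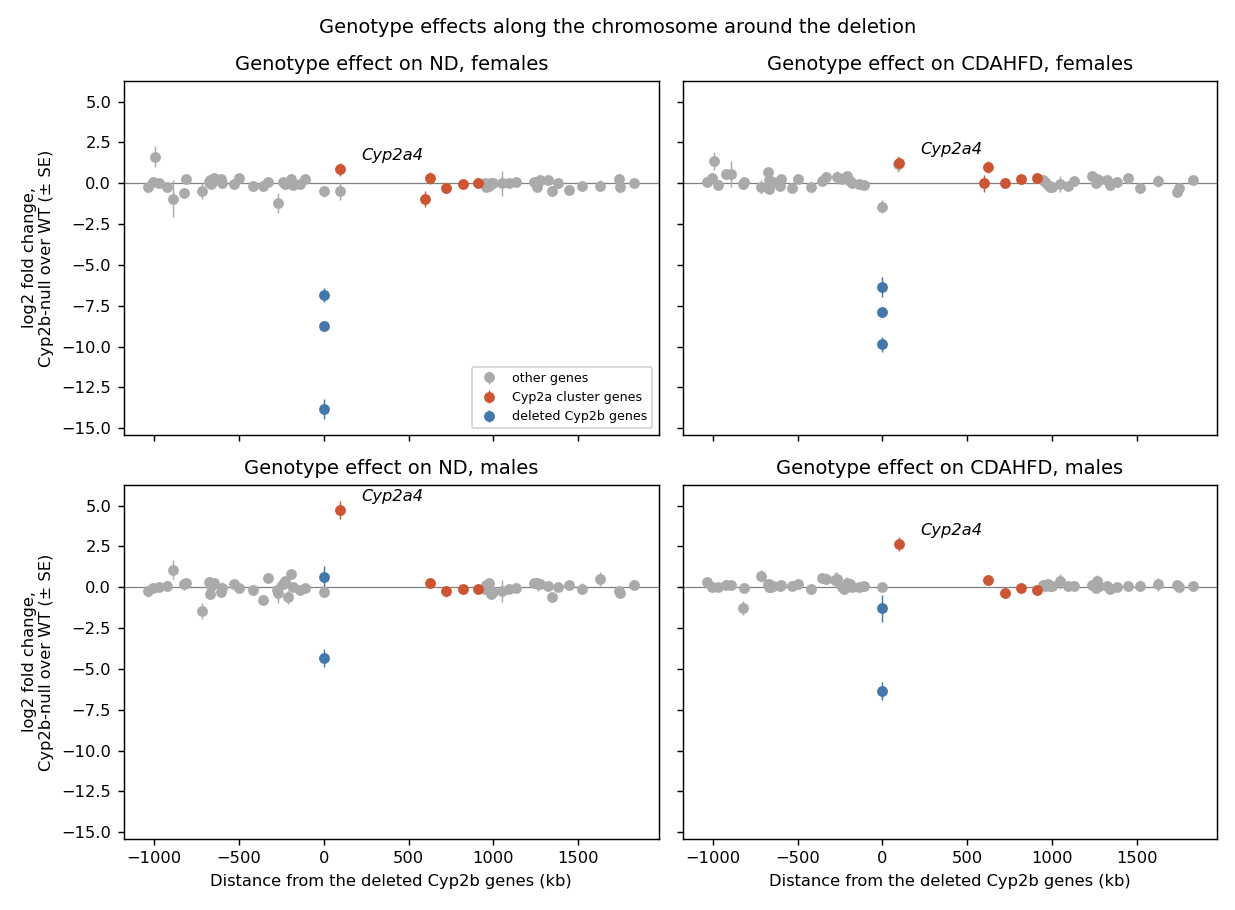
Genotype difference (log2 fold change of Cyp2b-null over WT, ± SE) of each tested gene against its distance in kb from the deleted Cyp2b genes, with genes inside the span at 0, 1 panel per sex and diet. Cyp2a4, at 96.5 kb, stands at 4.74 in ND-fed and 2.64 in CDAHFD-fed males, above the 55 other genes tested besides the deleted ones.

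Beside Cyp2a4 lies Gm42375 (chr7:26304421-26307212, minus strand), a noncoding RNA that starts at the Cyp2a4 promoter, runs the opposite way and shares 21 bases with Cyp2a4. Among 14019 genes its log2 CPM (prior count 1) had the highest Pearson r with that of Cyp2a4 over the 32 libraries, 0.88. It had 0 counts in all 8 WT male libraries and 0 to 5 in Cyp2b-null males, where 6 of 8 libraries had at least 1 read and 22 reads were counted in all. In females it had 1 to 25 counts. The male counts are near the floor of 3 counts used here, so no fold is given, and the strand setting of the counting is not given in the sources used here, so reads of the overlap cannot be told apart. The next genes by likeness to Cyp2a4 were Gm6135 (r = 0.86) and 9030619P08Rik (r = 0.85). Cyp2a5 came at rank 206 (r = 0.68). For Cyp2a5 the most alike were Por (r = 0.80), the oxidoreductase that passes electrons to microsomal P450s, Upp2 (r = 0.79), a uridine phosphorylase, and Ugp2 (r = 0.79), which makes UDP-glucose. These values are descriptions over libraries that share sex and diet groups, so they carry no p.

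Of the second pair, Cyp2a22 and Cyp2a12, neither was called by genotype. Cyp2a22 was low in WT males and moved by diet in opposite directions in WT females and males. ND-fed WT females had 122, 93.7, 229 and 165 CPM and ND-fed WT males 4.41, 3.47, 4.66 and 2.41 CPM, a difference of -5.31 (SE 0.32, adjusted p = 1.31e-14). On CDAHFD it fell to 72.9, 57.8, 30.5 and 40.1 CPM in WT females (-1.58, SE 0.26, adjusted p = 0.000142) and rose to 12.3, 17.9, 14.03 and 24.8 CPM in WT males (2.18, SE 0.28, adjusted p = 3.32e-06). Neither pair of groups overlapped, as for 12.2% of all genes toward lower values in WT females and 15.8% toward higher values in WT males. The diet effects of the sexes differed by 3.77 (SE 0.41, adjusted p = 4.48e-07).

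Cyp2a22 was also low in Cyp2b-null males. ND-fed Cyp2b-null males had 4.11, 2.05, 2.74 and 3.32 CPM, which overlap the WT values (-0.26, SE 0.32, adjusted p = 0.895). On CDAHFD Cyp2b-null males had 9.23 to 17.5 CPM and WT males 12.3 to 24.8 CPM (-0.37, SE 0.24, adjusted p = 1). The diet effect in Cyp2b-null mice was called in both sexes, at -1.23 in females (SE 0.26, adjusted p = 0.00134) and 2.07 in males (SE 0.28, adjusted p = 7.15e-06). In ND-fed females the genotypes had 93.7 to 229 and 90.3 to 172 CPM (-0.31, SE 0.26, adjusted p = 0.954).

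Cyp2a12 varied little. Its group means lay between 491 and 796 CPM, and within ND-fed Cyp2b-null males the 4 libraries had 562 to 588 CPM. In ND-fed males those sat below the 603 to 633 CPM of WT males without overlap, as did 2.03% of all genes toward lower values, and the difference of -0.11 (SE 0.12) had an adjusted p of 0.886. CDAHFD lowered it 1.37-fold in WT females (-0.45, SE 0.12, adjusted p = 0.00745). In Cyp2b-null females the change was -0.15 (SE 0.12, adjusted p = 0.361). In males it was -0.28 in WT and -0.22 in Cyp2b-null mice (SE 0.12 in each), and neither was called. ND-fed WT males had a level 1.29-fold lower than females (-0.36, SE 0.12, adjusted p = 0.0279), a call that was lost in 5 of 32 fits without 1 library, those without ND-fed WT female replicates 3 or 4 or ND-fed WT male replicates 2, 3 or 4 (adjusted p up to 0.0958). It was also lost without a low-count filter (adjusted p = 0.205) and with only the groups compared.

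Compared per kb of the transcript with the longest coding sequence, Cyp2a5, Cyp2f2, Cyp2a12 and Cyp2a4 had like levels in ND-fed WT females, at 498 ± 239, 474 ± 40.9, 473 ± 48.6 and 462 ± 91.7 CPM per kb (SD, n = 4). These 4 did not differ beyond their spread, and Cyp2a22 (84.9 ± 32.7 CPM per kb) and Cyp2g1 (4.81 ± 3.17 CPM per kb) were below them. In ND-fed WT males the order was Cyp2f2 (597 ± 47.0), Cyp2a12 (368 ± 10.1), Cyp2a5 (167 ± 26.1), Cyp2a22 (2.08 ± 0.571) and Cyp2a4 (1.91 ± 0.684 CPM per kb). Of these neighbours in the order, Cyp2a22 and Cyp2a4 did not differ beyond their spread. In ND-fed Cyp2b-null males Cyp2a4 reached 50.3 ± 28.1 CPM per kb against 202 ± 47.1 for Cyp2a5.

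Cyp2f2 fell on CDAHFD in males of both genotypes, without overlap of the groups (12.6% and 17.1% of all genes toward lower values). ND-fed WT males had 1001 to 1196 CPM and CDAHFD-fed WT males 446 to 905 CPM (-0.86, SE 0.17, adjusted p = 0.000532). In Cyp2b-null males the levels were 976 to 1115 and 426 to 616 CPM (-0.94, SE 0.17, adjusted p = 0.000191). In WT females the change was -0.39 (SE 0.13, adjusted p = 0.0308), with overlap, and it was lost in 6 of 16 fits without 1 library (adjusted p up to 0.107). Those were the fits without ND-fed WT replicates 1, 2 and 4 and CDAHFD-fed WT replicates 1, 2 and 4. It was also lost with library size only (adjusted p = 0.723), without a low-count filter and with only the groups compared. In Cyp2b-null females the change was -0.09 (SE 0.13, adjusted p = 0.643). The genotype differences lay between -0.17 and 0.32 in the 4 comparisons, with adjusted p from 0.826 to 1. Fewer cells of a type and less RNA per cell cannot be told apart in these bulk samples.

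Cyp2g1 was at the edge of detection. ND-fed WT females had 2.98, 6.12, 16.8 and 10.5 CPM (15 to 61 counts), and CDAHFD-fed WT females 1.31 to 3.31 CPM (6 to 19 counts). The change was -1.88 (SE 0.51, adjusted p = 0.00902) and the groups overlapped. Males had 0 to 14 counts per library. The ND-fed WT sex difference was -2.98 (SE 0.60, adjusted p = 0.0007), in a fit of both sexes where the place of Cyp2g1 rests on females. Genotype differences were not called in either sex. The 5 markers of lung and olfactory cells summed to 0 to 21.1 CPM in a library. Cyp2s1 had 0 to 11 counts in every library and none of its comparisons was called when low counts were left unfiltered.

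Gm29920 was counted in WT females alone among the groups with more than 1 read in any library. ND-fed WT females had 19, 5, 10 and 21 counts (3.17 ± 0.85 CPM) and CDAHFD-fed WT females 4, 2, 3 and 2. Cyp2b-null females had 0 counts in 7 libraries and 1 count in 1, and all 16 male libraries had 0. In ND-fed females its Cyp2b-null level was at least 4.02-fold lower than in WT, taking a floor of 3 counts per library, which allows a mean of up to 0.789 CPM. The fit without the low-count filter gave it an adjusted p of 3.72e-07, in a setting that called 0.479% of its 25490 genes. ND-fed WT males were at least 5.99-fold lower than ND-fed WT females. By annotation the gene lies inside the span of the deleted genes. The end points of the deletion itself are not given in the sources used here. A second pseudogene in the span, Rnf170-ps, which lies within the bounds of Cyp2b13, kept 3 to 55 counts in Cyp2b-null libraries and 12 to 58 in WT libraries, and it was named after its values were seen. In CDAHFD-fed females it had 1.76, 1.59, 0.535 and 1.93 CPM in Cyp2b-null mice. WT mice there had 6.35, 4.96, 2.99 and 2.34 CPM (-1.45, SE 0.39, adjusted p = 0.826). In ND-fed females the genotypes overlapped, at 3.84 to 6.35 CPM in Cyp2b-null and 4.04 to 10.0 CPM in WT mice. They also overlapped in males on each diet. As a copy of Rnf170, Rnf170-ps can share reads with its parent gene, and whether it did was not tested.

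**Figure D4:**
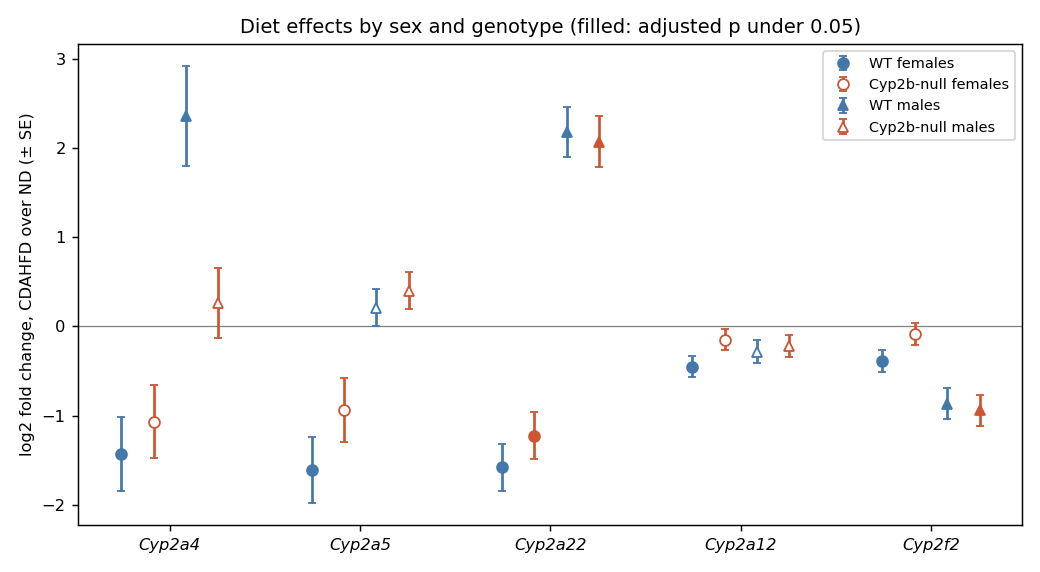
Diet effect (log2 fold change of CDAHFD over ND, ± SE) on 5 genes of the cluster in each sex and genotype, filled where the adjusted p was under 0.05. WT females are below 0 for all 5 genes, from -0.39 to -1.61, and WT males are above 0 for Cyp2a4 (2.36) and Cyp2a22 (2.18) and below 0 for Cyp2f2 (-0.86).

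Counted over the cluster, CDAHFD lowered 6 of the 6 members that passed the filter in WT females (median -1.51, against -0.00 over all genes), in a comparison with 24.1% of genes called and 10.2% called lower. Fits that left out 1 library called 4 to 6 of them, and scaling by library size only lost the calls of Cyp2a12 and Cyp2f2. In Cyp2b-null females 1 of 6 was called, Cyp2a22 (30.8% of all genes called and 13.9% called lower, median of those tested -0.93). Cyp2a4 (-1.07, adjusted p = 0.0528) and Cyp2a5 lay just outside the threshold there, and their sum was called (-1.003, adjusted p = 0.0334). Without CDAHFD-fed Cyp2b-null replicate 3, 4 of 6 were called. The difference of the diet effects between genotypes was called for 0 members in females and 0 in males with edgeR (0% and 0.00743% of all genes). There 0 members in females and 1 in males, Cyp2a4, had an unadjusted p under 0.05 (6.28% and 6.07% of all genes), and DESeq2 called 0. In WT males 2 of 5 members rose and 1 fell (33% of all genes called, 18% higher and 15% lower), and in Cyp2b-null males 1 rose and 1 fell (37.4%, 20.3% higher and 17.1% lower). Between ND-fed WT sexes 5 of 6 members were lower in males (17.8% of all genes called, 9.45% called lower), and the sex difference of the diet effect in WT was called for 3 of 6 (0.97%). Among these 5, Cyp2g1 missed the low-count filter in males. Its place in the fit of both sexes rests on females, where it was higher, so its direction adds no support.

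Of the female-predominant and male-predominant liver genes listed, 0 were called by genotype in ND-fed males with edgeR. Of 23 female-predominant liver genes, all were lower in ND-fed WT males than in WT females (median -6.78), for example Cyp2c69 (-7.98, SE 0.42, adjusted p = 6.72e-16), a P450, and Sult3a1 (-11.73, SE 0.52, adjusted p = 1.17e-14), a sulfotransferase. Over all genes 9.45% were called lower in ND-fed WT males. Both sex-biased lists are named for their direction, so these sex counts describe the lists and are no test. Only 13 of the female-predominant genes passed the low-count filter in males. By genotype in ND-fed males, edgeR called 0 of the 13 that passed the filter (median -0.15, against -0.01 over all genes). Of these 13, 3 had an unadjusted p under 0.05, and DESeq2 called 1, Atp6v0d2. For every list of ND-fed males here, the shares over all genes were 0.0371% for calls and 8.26% for unadjusted p under 0.05. With calls that rare, 0 called in a short list does not show that its genes were unmoved. In ND-fed females 1 of 23 was called by both tools, Cyp3a16, lower in Cyp2b-null mice (-3.02, SE 0.48, adjusted p = 0.00658 with edgeR). There 6 of 23 had an unadjusted p under 0.05, beside 5.75% of all genes. On CDAHFD both tools called 0 of these genes by genotype in either sex. In that comparison edgeR called 0.0227% of all genes in females and 0.0297% in males. Of 21 male-predominant genes that passed the filter, 18 were higher in ND-fed WT males, and 0 were called by genotype in males on ND (median 0.17), with 1 at an unadjusted p under 0.05 and 0 by DESeq2. Of 17 regulators and partners of P450 genes, among them Hnf4a (-0.33, SE 0.12, adjusted p = 0.431), a hepatocyte nuclear receptor, and Nfe2l2 (0.34, SE 0.17, adjusted p = 0.615), the factor NRF2, 0 were called in ND-fed males, 1 had an unadjusted p under 0.05, and DESeq2 called 0. Likewise 0 of 13 targets of CAR, the xenobiotic receptor of Cyp2b genes, and of NRF2 were called (median 0.12), with 1 at an unadjusted p under 0.05 and 0 by DESeq2.

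On diet, sex-biased and cell type lists are counted beside 24.1% of all genes called in WT females and 33% in WT males. In WT females 18 of 23 female-predominant genes fell and 0 rose (median -2.47), led by Sult3a1 (-8.73, SE 0.42, adjusted p = 5.62e-12). In WT males 18 of 21 male-predominant genes tested fell and 0 rose (median -1.81), among them Elovl3 (-4.94, SE 0.42, adjusted p = 1.88e-08), a fatty acid elongase. In WT females 7 of 18 regulators, 6 of 13 CAR and NRF2 targets and 7 of 18 male-predominant genes were called, of which 1, 2 and 3 were higher and 6, 4 and 4 lower. Among 10 hepatocyte markers 8 fell in WT females, and 9 fell and 1 rose in WT males, and their sum went from 154938 to 219893 CPM on ND to 106437 to 126793 CPM on CDAHFD in WT females. Of 10 periportal genes 7 fell and 2 rose in WT females and 5 fell and 2 rose in WT males, while of 10 pericentral genes 4 fell and 1 rose in WT females and 1 fell and 5 rose in WT males. The 6 macrophage markers summed to 369 to 611 CPM in ND-fed and 854 to 1048 CPM in CDAHFD-fed WT females, and to 161 to 324 and 629 to 1279.8 CPM in WT males, with 5 of 6 called higher in each sex. The part of these shifts in the diet effects of the cluster was not tested.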

How the data were processed

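The authors checked reads with FastQC, trimmed them with Trimmomatic, used GSNAP for alignment (GRCm38.p6) and Subread featureCounts for counting. Versions, strand and multimapping settings are not given in the sources used here. The deposited values are raw counts per gene, in 1 table per sex, with 41585 gene entries. The tables were joined. In them 27 symbols had been turned into dates and 4 entries were listed more than once, none of them a gene named here. Library totals were 2906411 to 10166959 counts. No 2 libraries of a group agreed within sampling noise (lowest chi-square per degree of freedom 3.34). Nothing states how the mice were caged, so p-values measure the spread between these libraries.

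Counts were filtered with filterByExpr (smallest count 10, smallest total 15), scaled with TMM factors and tested with edgeR 4.0.16 (R 4.3.3), with 13226 genes in females, 13460 in males and 14020 in 1 fit to both sexes. Members that missed the filter were tested without it. Alternatives were RLE factors, library size only, DESeq2 1.42.0, 2 other filters, only the groups compared, the replicate number as a block, adjusted p under 0.1, leaving out each library and summing Cyp2a4 and Cyp2a5. Sequences were compared with Biopython 1.88, and the share test with scipy 1.17.1 was added after the data were seen.

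Named genes are all 8 members, the 3 deleted genes, at most 3 genes per list with the smallest adjusted p in the comparison described, and the 3 genes most like Cyp2a4 and Cyp2a5 by Pearson r. Rnf170-ps was added after its values were seen. Members and lists were chosen with earlier results of these data known.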

Additional observations from a re-analysis of the deposited data

Results flagged for a closer look

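In CDAHFD-fed Cyp2b-null males, the library with 174 CPM of Cyp2a4 stood apart from the other 3, which had 73.4 to 88.8 CPM, and without it the genotype difference was 2.29 (adjusted p = 0.16). In CDAHFD-fed Cyp2b-null females, 1 library had 1.21 CPM of Cyp2s1, from 10 counts, and the other 3 had 0 or 1 count. These 2 were found among 57 sets of 4 libraries, and chance alone gives about 1 in 20.

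For 3 members the sex difference of the diet effect in WT was called. The difference of log2 changes (males minus females) was 3.81 for Cyp2a4 (adjusted p = 0.00631), 3.77 for Cyp2a22 (adjusted p = 4.48e-07) and 1.84 for Cyp2a5 (adjusted p = 0.0389), each from edgeR's quasi-likelihood test over all 32 libraries. The call for Cyp2a5 was lost in 9 of 32 fits without 1 library, with the replicate number as a block and with only the groups compared (adjusted p up to 0.0899 in the last).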

How the results depend on the processing

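Over all members and comparisons, no called change turned its direction under any setting. The genotype difference of Cyp2a4 in ND-fed males was called in every fit that kept it apart from Cyp2a5 (4.403 to 5.02 over the fits that left out 1 library). With both copies summed, where Cyp2a5 held most of the male counts, it was 0.54 on ND and 0.66 on CDAHFD, not called. In females the fit without a low-count filter called it on ND (0.87) and CDAHFD (1.22), while that fit called 122 genes on ND against 10 with the filter (170 against 5 in ND-fed males, where DESeq2 called 61). It also gave 4 called members instead of 1 for diet in Cyp2b-null females, 1 and 2 instead of 0 for genotype in females on ND and CDAHFD, and 1 instead of 0 for the male interaction and for the sex difference of the genotype effect on CDAHFD. Fitting only the groups compared gave 3 instead of 1 for diet in Cyp2b-null females, as did an adjusted p under 0.1. For the sex difference of the genotype effect on ND, library size only, a filter of 1 CPM in 4 libraries, no filter, DESeq2, only the groups compared and an adjusted p under 0.1 gave 1 (Cyp2a4) instead of 0.

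Leaving out 1 library gave 4 to 6 called members for diet in WT females and 1 to 4 in Cyp2b-null females. It gave 0 to 1 for genotype in CDAHFD-fed males and 0 to 1 for the sex difference of the genotype effect on ND. The difference of Cyp2a4 in CDAHFD-fed males ran from 2.29 to 3.25. Library size only moved the median of all genes by 0.32 in WT females and 0.37 in WT males on diet, and 88.8% and 89.8% of all diet calls were then higher, against 57.6% and 54.6%. It removed the diet calls of Cyp2a12 (-0.12) and Cyp2f2 (-0.06) in WT females and added those of Cyp2a5 in males of both genotypes. The fit without a low-count filter and that of only the groups compared also removed the Cyp2f2 call and that of Cyp2a12 between ND-fed WT sexes, and added that of Cyp2a5 in Cyp2b-null males. Without the filter the Cyp2a12 sex difference in ND-fed Cyp2b-null mice was lost, and Cyp2a5 was called by genotype in CDAHFD-fed females. Only the groups compared and the replicate block removed the Cyp2a5 sex difference of the diet effect. Beyond fewer or more genes tested, the cause of these changes was not tested. Replicate numbers did not pair libraries, as correlations of same-numbered deviations ran from -0.159 to 0.269. The replicate block changed 1 call, that of Cyp2a5 in the sex difference of the diet effect, and gave 4.60 for Cyp2a4 in ND-fed males (adjusted p = 0.000296) and 2.65 in CDAHFD-fed males.

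Depth limits Cyp2s1, Gm29920 and male Cyp2g1, where 3 counts equal 0.25 to 1.15 CPM.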
